A study of Mus musculus with 20 samples.

Results

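A set of 38 genes that mark macrophages and other myeloid cells was followed in adipocyte RNA of wild-type and Olfm2 knockout mice. Its members were chosen by symbol, with earlier results of these data known. Counts set beside the share of all genes therefore describe the set and do not test it. Of the 38 genes, 36 were measured among the 19505 genes of the arrays by a probe that carries 1 symbol. The 2 other genes, Cd68 and Clec7a, were not analysed here. The samples were adipocytes that, per the labels, came out of mouse fat and were differentiated in culture, and total RNA of each was hybridised to 1 Affymetrix array. There were 5 arrays in each of 4 groups: sc WT (wild type) and sc KO (Olfm2 knockout) of the depot labelled sc, and g WT and g KO of the depot labelled g. Olfm2 encodes olfactomedin 2, a secreted glycoprotein. For the strain, age and sex of the mice, the design of the Olfm2 allele and any treatment nothing was found in the labels. They also leave unsaid if a group's arrays stem from separate cultures or animals. The p-values therefore measure only the spread between these arrays, which may be technical.

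Macrophages are among the most abundant leukocytes of fat and are not made from preadipocytes. They arise from yolk sac, liver or bone marrow progenitors under the transcription factor PU.1 and the growth factor receptor CSF1R, and they engulf dying cells, clear lipid and sense microbes through scavenger, Fc, complement and lectin receptors. The 36 genes fall into 8 roles. They include lineage factors and growth factor receptors, general surface and cytoplasmic markers, complement C1q, and the beta2 integrins. The others are activating Fc receptors, grouped with the adaptor gene Tyrobp, recognition receptors, chemokine receptors, and effector proteins.

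Transcription of many of these genes is known to depend on PU.1, so their promoters were searched for the letters GAGGAAG, a core of the PU.1 motif, on both strands. RefSeq promoters of assembly GRCm38.p6, 300 bases running from 250 before to 50 after the start, were in the table for 25 of the 36 genes, with 29 promoters among them. The 7 letters were found in 12 of these 29 promoters (41.4%) and in 4477 of all 32851 promoters of the same length (13.6%). Overlapping promoters of Fcgr3 were counted separately, and by gene 11 of the 25 (44%) held the letters. A PU.1-IRF composite motif, which shares the letters GGAA with the first, was found in 1 of the 29, that of Cybb, against 2.72% of all promoters. A match is a description of the letters and not of binding. The promoters of 4 genes that hold GAGGAAG are shown because these were the genes with the smallest knockout p in g among those with such a promoter; each runs 5′ to 3′ along the gene's own strand, and capitals mark GAGGAAG or its reverse complement CTTCCTC. Fcgr1 lies at chr3:96293920-96294219 on the minus strand, C1qc at chr4:136892865-136893164 on the minus strand, Itgam at chr7:128062390-128062689 on the plus strand and Fcgr4 at chr1:171018676-171018975 on the plus strand.
Fcgr1: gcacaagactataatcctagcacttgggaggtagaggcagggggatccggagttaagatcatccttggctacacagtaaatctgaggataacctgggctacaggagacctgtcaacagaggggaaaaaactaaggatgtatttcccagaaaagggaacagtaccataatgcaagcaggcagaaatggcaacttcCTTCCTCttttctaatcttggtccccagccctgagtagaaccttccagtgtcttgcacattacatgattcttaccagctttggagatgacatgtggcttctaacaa
C1qc: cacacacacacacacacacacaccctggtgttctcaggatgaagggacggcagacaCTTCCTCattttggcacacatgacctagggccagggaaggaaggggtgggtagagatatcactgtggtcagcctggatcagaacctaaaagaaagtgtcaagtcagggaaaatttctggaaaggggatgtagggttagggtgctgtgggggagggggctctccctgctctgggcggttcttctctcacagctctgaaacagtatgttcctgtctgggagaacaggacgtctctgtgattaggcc
Itgam: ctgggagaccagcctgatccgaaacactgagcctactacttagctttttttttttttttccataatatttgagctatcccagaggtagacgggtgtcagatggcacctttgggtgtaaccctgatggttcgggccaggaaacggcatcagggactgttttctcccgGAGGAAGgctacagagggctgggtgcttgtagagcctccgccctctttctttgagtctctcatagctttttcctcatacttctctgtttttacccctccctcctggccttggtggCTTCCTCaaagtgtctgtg
Fcgr4: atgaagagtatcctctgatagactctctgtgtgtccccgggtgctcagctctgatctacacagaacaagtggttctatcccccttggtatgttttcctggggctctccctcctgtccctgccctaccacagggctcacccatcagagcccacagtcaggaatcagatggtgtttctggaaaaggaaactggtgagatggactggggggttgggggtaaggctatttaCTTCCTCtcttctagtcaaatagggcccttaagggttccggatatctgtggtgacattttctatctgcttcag
The Itgam promoter holds 2 matches and the other 3 promoters hold 1 each. Several of the genes are neighbours in RefSeq's gene order: Fcgr3 and Fcgr4, C1qa, C1qc and C1qb, and Clec4d and Clec4e are adjacent, and 1 gene lies between Itgam and Itgad. Neighbours and paralogs are not independent measurements of a cell type.

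The arrays themselves were checked first. Olfm2 lay between 4.28 and 5.25 on the sc WT arrays and 2.67 and 3.58 on the sc KO arrays, and between 4.08 and 4.60 on g WT and 3.36 and 3.72 on g KO, all as log2 signal, so the genotypes did not overlap in either depot. Olfm2 was dim in wild type too, as the medians of the background probes were 3.29 to 3.57. The mean of 16 adipocyte markers lay between 10.7 and 11.7 on all 20 arrays, and the 36 myeloid genes were measured in the same RNA. The mean of 15 hepatocyte markers was above 7 on 8 arrays (7.57 to 10.3, against 5.14 to 6.11 on the others), of which 2 were sc KO, 2 g WT and 4 g KO. The mean of 10 lymphocyte markers was above 7 on 3 sc arrays, sc286WT, sc317KO and sc320KO, at 8.17 to 8.57 against 5.04 to 6.95 elsewhere. The mean of 11 skeletal muscle markers was above 7 on these 3 arrays and on sc307WT. Values by array are log2 signals in the order sc286WT, sc287WT, sc307WT, sc308WT and sc309WT, then sc300KO, sc306KO, sc317KO, sc318KO and sc320KO, and the g arrays follow the same numbers (g286 WT to g309 WT, g300 KO to g320 KO).

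**Figure D1:**
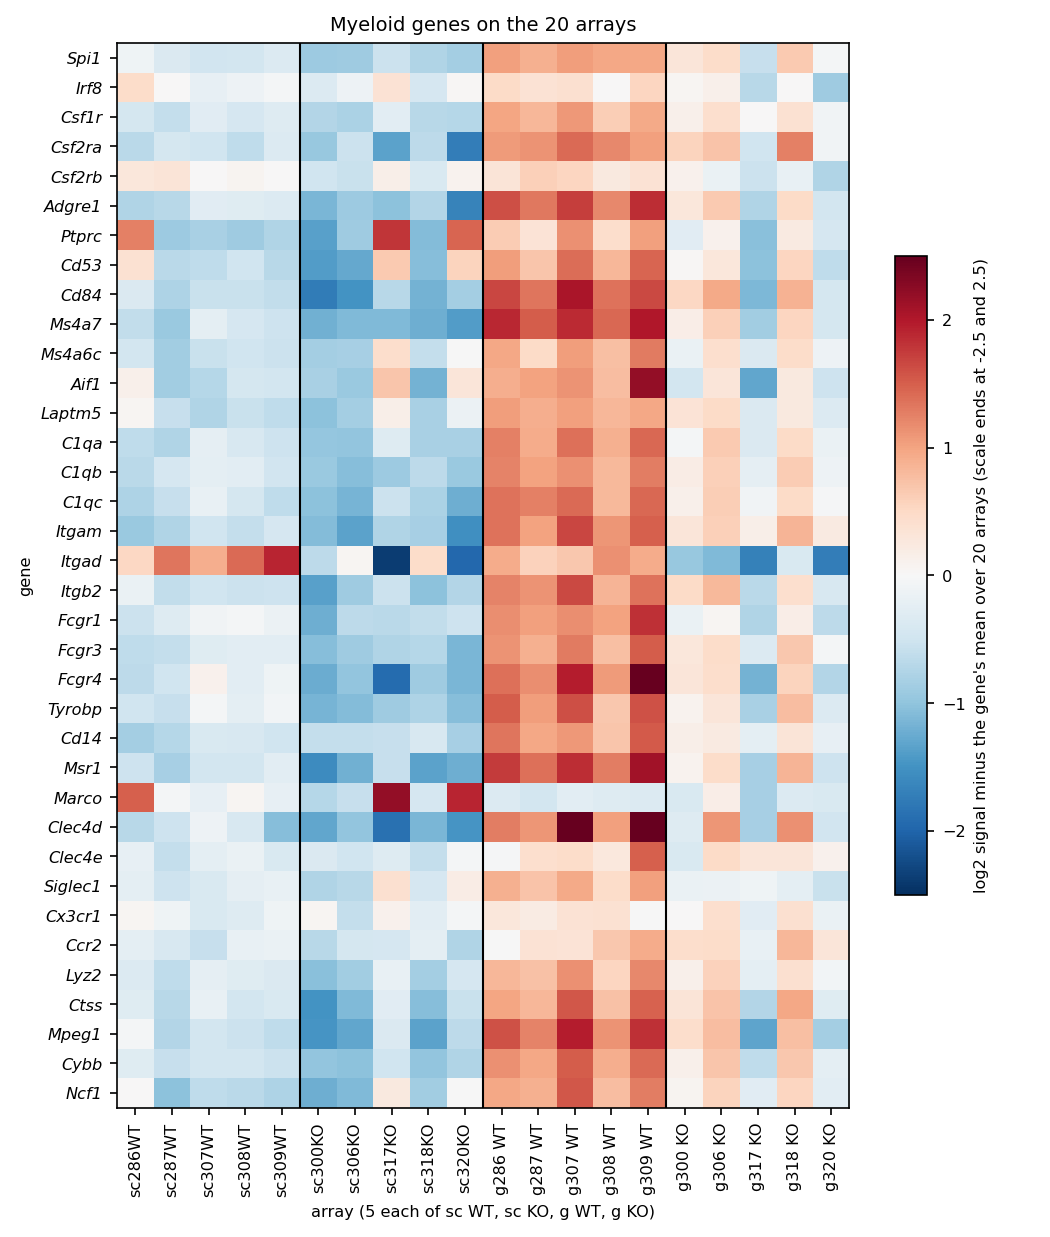
Log2 signal of each of the 36 genes (rows) on each of the 20 arrays (columns), minus the gene's own mean over the arrays; red is higher and blue lower. The 5 g WT arrays are the reddest block, with a mean over the genes of 9.002 to 9.56, and within g KO the arrays g317 KO and g320 KO are the bluest, at 7.62 and 7.86.

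Knockout g adipocyte samples held less RNA of nearly the whole set. In g, 30 of the 36 genes fell and 0 rose (limma, Benjamini-Hochberg adjusted p under 0.05, here "called"), where 11.3% of all 19505 genes were called, 6.27% lower and 5.01% higher. The median log2 difference of the 36 genes, g KO minus g WT, was -1.02 (2.02-fold lower) against 0.02 for all genes, and all 36 differences were below 0. In sc, 1 of the 36 genes fell and 0 rose, where 0.677% of all genes were called, 0.379% lower and 0.297% higher, and the median was -0.41 (1.32-fold lower) with 29 of the 36 below 0. In whole-sample RNA, fewer cells of a type and less RNA per cell cannot be told apart. The mean over the 36 genes was 9.27 ± 0.24 (SD, n = 5) in g WT and 8.22 ± 0.47 (SD, n = 5) in g KO, and every g KO array lay below every g WT array. For sc the means were 7.87 ± 0.11 (SD, n = 5) in WT and 7.51 ± 0.25 (SD, n = 5) in KO, and the arrays overlapped. At the level of single genes, 26 of the 36 had all 5 g KO arrays below all 5 g WT arrays, where 5.73% of all genes did, and 0 had all above, where 4.68% did. In sc 6 genes had all knockout arrays lower (Spi1, Ms4a7, Itgad, Fcgr3, Fcgr4 and Tyrobp), where 1.53% of all genes did, and 0 had all higher, where 1.41% did. For such a gene the two-sided exact permutation test gives p = 0.00794, the smallest that 5 arrays against 5 allow.

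**Figure D2:**
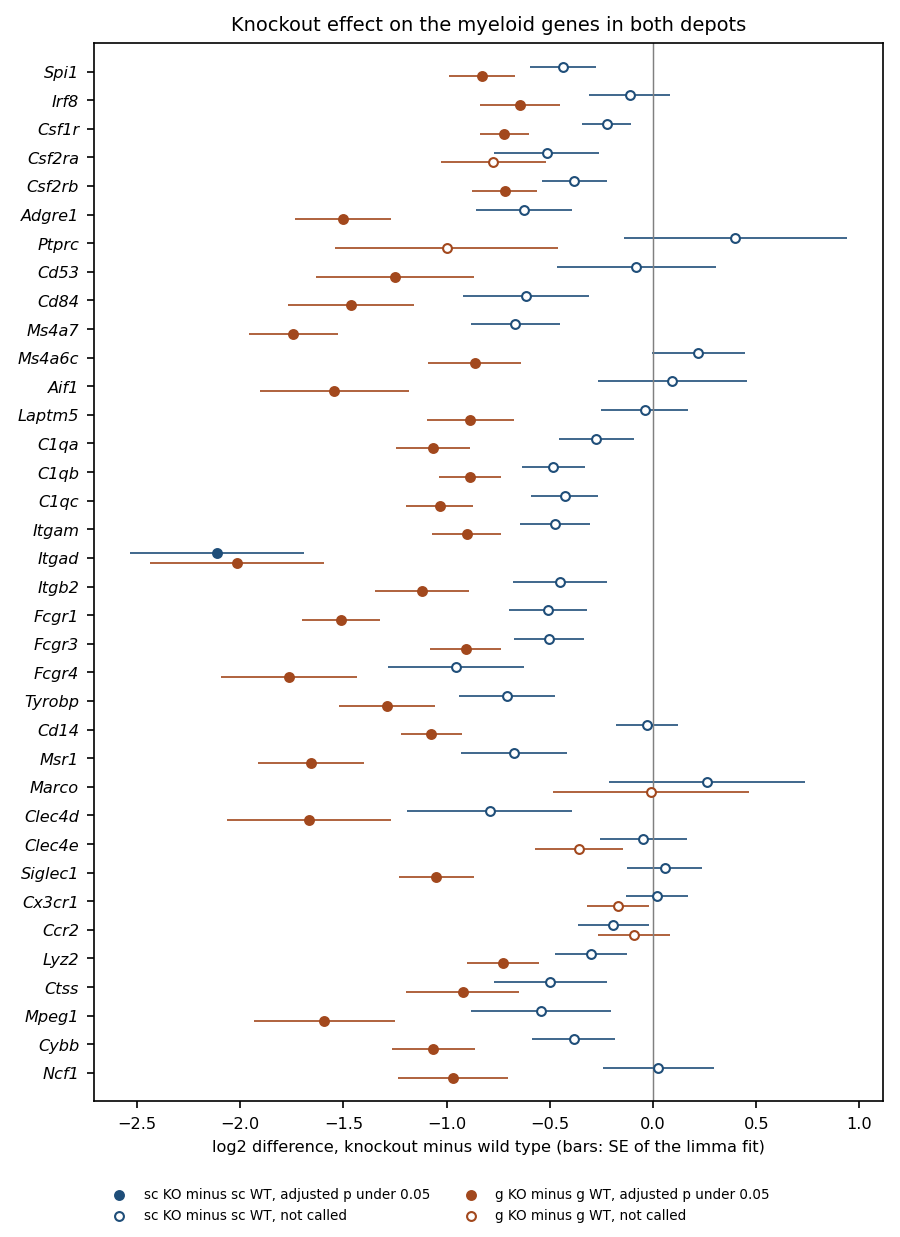
Log2 difference between knockout and wild type (x axis) for each of the 36 genes (y axis) in sc (blue) and g (brown), with the SE of the limma fit as bars and filled points for an adjusted p under 0.05. All 36 brown points lie left of 0 and 30 are filled, while of the blue points 1, Itgad at -2.11, is filled.

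Hepatocyte and adipocyte markers were on average higher in g KO than in g WT. Hepatocyte marker means averaged 6.55 ± 1.52 (SD, n = 5) in g WT and 8.44 ± 1.86 (SD, n = 5) in g KO. Limma called 0 of the 15 markers, and 8 had an unadjusted p under 0.05, as did 4702 of all 19505 genes. With the hepatocyte marker mean as a covariate 21 of the 36 myeloid genes were called lower and the median was -0.83. The genes no longer called were Irf8, Cd53, Ms4a6c, Aif1, Laptm5, Clec4d, Lyz2, Ctss and Ncf1. Without the 6 g arrays and 2 sc arrays above 7, which leaves 3 g WT arrays and 1 g KO array, the median was -1.12 and 1 gene, Ms4a7, was called; the lone g KO array is then assumed to vary like the other groups. That array, g300 KO, had a mean over the 36 genes of 8.29, below each of the 5 g WT arrays. Adipocyte markers rose: 11 of 16 were called higher in g KO, with Retn at 1.38 (adjusted p = 6.26e-06) and Slc2a4, the insulin-responsive glucose transporter, at 1.23 (adjusted p = 3.97e-05). Their list mean was 10.9 ± 0.17 (SD, n = 5) in g WT and 11.4 ± 0.075 (SD, n = 5) in g KO, with no overlap, and its part in the lower myeloid signals was not tested. All 10 lymphocyte markers had differences below 0 in g (median -0.63, 1.54-fold lower), with list means of 6.16 ± 0.51 (SD, n = 5) in g WT and 5.61 ± 0.16 (SD, n = 5) in g KO that overlapped by array. Limma called 0 of the 10, with 0 at an unadjusted p under 0.05, in the fit whose spread is shared with the lymphocyte-high sc arrays. With only the g arrays fitted 1 was called lower, Cd22, with 5 at an unadjusted p under 0.05, and without the 3 lymphocyte-high sc arrays 4 were, Cd22, Cd79b, Cd8a and Cd79a. With the hepatocyte, lymphocyte and muscle marker means as covariates 27 of the 36 myeloid genes were called lower and the median was -0.81. The genes no longer called in that fit were Irf8, Clec4d and Ctss. The part of the lymphocyte markers alone in the lower myeloid signals was not tested. The arrays g317 KO and g320 KO were the lowest of their group for 30 and 5 of the 36 genes, and without these arrays and the same-numbered sc317KO and sc320KO, an alternative chosen after seeing the data, 26 genes were called lower and the median was -0.70.

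Among the lineage genes 4 of 5 fell in g. Spi1 encodes PU.1, the transcription factor that sets up the myeloid programme. Its g WT arrays read 11.95, 11.82, 11.98, 11.89 and 11.89 and its g KO arrays 11.22, 11.38, 10.35, 11.57 and 10.88. Each knockout array was below each wild-type array, with g317 KO the lowest, and the difference was -0.83 (SE 0.16, limma adjusted p = 0.00207). For Csf1r, the receptor of the survival factors CSF1 and IL-34, the values were 10.70, 10.54, 10.79, 10.32 and 10.65 in g WT and 9.83, 10.14, 9.72, 10.09 and 9.62 in g KO. They did not overlap, and the difference was -0.72 (SE 0.12, limma adjusted p = 0.000723). Csf2rb, the common beta chain of the GM-CSF, IL-3 and IL-5 receptors, read 8.39, 8.66, 8.60, 8.31 and 8.43 in g WT and 8.18, 7.89, 7.52, 7.88 and 7.31 in g KO. Its groups did not overlap either, and it fell by 0.72 (SE 0.16, limma adjusted p = 0.00498). Irf8, which specifies monocytes and dendritic cells, read 8.17, 8.05, 8.09, 7.69 and 8.23 in g WT and 7.73, 7.81, 6.99, 7.69 and 6.80 in g KO. Array g308 WT was below g300 KO and g306 KO, so the groups overlapped, and the difference was -0.64 (SE 0.19, limma adjusted p = 0.0364); the call was lost without any 1 of 6 arrays (g286 WT, g287 WT, g307 WT or g309 WT, g317 KO or g320 KO), with adjusted p of 0.059 to 0.111. Csf2ra, the GM-CSF-specific alpha chain, was the 1 lineage gene not called, at -0.77 (SE 0.25, limma adjusted p = 0.0535). Its g KO arrays read 8.64, 8.79, 7.60, 9.35 and 7.999, and g318 KO lay above 4 of the 5 g WT arrays, which ran from 9.11 to 9.50. Without g318 KO it was called (-0.99, limma adjusted p = 0.00748), and likewise without g306 KO (-0.85, limma adjusted p = 0.0469).

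Among the general surface and cytoplasmic markers 7 of 8 fell in g, with a median of -1.36. Adgre1 encodes F4/80, the antigen that classically marks mouse macrophages. It read 9.73, 9.43, 9.84, 9.32 and 9.97 on g WT and 8.40, 8.77, 7.37, 8.60 and 7.65 on g KO. The lowest wild-type array, 9.32, stood well above the highest knockout array, 8.77, and the difference was -1.50 (SE 0.23, limma adjusted p = 0.000389), 2.83-fold lower. Ms4a7, a tetraspanning protein of macrophages, had the smallest p of the 36: 10.36, 9.98, 10.35, 9.92 and 10.48 in g WT against 8.64, 9.07, 7.61, 9.01 and 8.04 in g KO. The lowest g WT array, 9.92, was above the highest g KO array, 9.07, a difference of -1.74 (SE 0.22, limma adjusted p = 7.02e-05) or 3.35-fold. Its neighbour family member Ms4a6c read 7.71, 7.23, 7.78, 7.50 and 8.05 against 6.58, 7.17, 6.38, 7.20 and 6.62. Those groups also lay apart, by a narrow margin, with -0.86 (SE 0.22, limma adjusted p = 0.0155). The call on Ms4a6c was lost without g309 WT (adjusted p = 0.0507) or g317 KO (adjusted p = 0.0516).

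Cd84, a self-binding receptor of the SLAM family, read 10.18, 9.85, 10.55, 9.87 and 10.15 in g WT and 9.01, 9.45, 7.38, 9.38 and 8.06 in g KO. The groups did not overlap, the knockout arrays spanned 7.38 to 9.45, and the difference was -1.46 (SE 0.30, limma adjusted p = 0.00353). Aif1, which encodes the actin-binding protein IBA1, read 7.45, 7.54, 7.66, 7.31 and 8.73 against 6.09, 6.84, 5.24, 6.78 and 6.03. Array g309 WT stood above the other g WT arrays and g317 KO below the other g KO arrays, and the difference was -1.54 (SE 0.36, limma adjusted p = 0.00802). Laptm5, a lysosomal membrane protein of blood cells, read 11.77, 11.65, 11.76, 11.57 and 11.70 against 11.07, 11.21, 10.37, 10.98 and 10.38. No arrays overlapped and it fell by 0.89 (SE 0.21, limma adjusted p = 0.0088). The leukocyte tetraspanin Cd53 read 9.75, 9.40, 10.11, 9.52 and 10.15 against 8.73, 8.98, 7.68, 9.23 and 8.07. It fell by 1.25 (SE 0.38, limma adjusted p = 0.0393) with no overlap, and lost its call without any 1 of 6 arrays (g286 WT, g307 WT or g309 WT, g300 KO, g317 KO or g320 KO), with adjusted p of 0.0513 to 0.121. Ptprc, the phosphatase CD45 carried by all leukocytes, read 9.34, 9.05, 9.85, 9.14 and 9.73 in g WT and 8.42, 8.81, 7.67, 8.93 and 8.29 in g KO. These did not overlap, yet the difference of -0.999 (SE 0.54, limma adjusted p = 0.274) was not called; the fit shares its spread over the 4 groups, and the sc arrays of Ptprc ran from 7.34 to 10.5. Fitted on the g arrays alone it was called (limma adjusted p = 0.0202). That fit kept 28 of the 30 calls that the fit over the 4 groups made in g.

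The complement genes, whose products form the C1q recognition molecule of the classical pathway and which tissue macrophages secrete, fell in full, 3 of 3. C1qc read 11.03, 10.94, 11.10, 10.50 and 11.11 in g WT and 9.82, 10.30, 9.59, 10.16 and 9.65 in g KO. Array g308 WT was set off below the rest of g WT but above every g KO array, and the difference was -1.03 (SE 0.16, limma adjusted p = 0.000445). C1qa read 10.32, 10.00, 10.44, 9.95 and 10.49 against 9.02, 9.72, 8.70, 9.53 and 8.89. It fell by 1.07 (SE 0.18, limma adjusted p = 0.000768) without overlap. C1qb read 11.49, 11.26, 11.38, 11.06 and 11.52 against 10.43, 10.83, 10.01, 10.88 and 10.11. It too was apart on all arrays and fell by 0.89 (SE 0.15, limma adjusted p = 0.000803). In all 3 genes g317 KO was the lowest array and g306 KO or g318 KO the highest.

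All 3 integrin genes fell in g. Itgam encodes CD11b, the alpha chain of complement receptor 3. Its arrays read 10.07, 9.72, 10.39, 9.82 and 10.22 in g WT and 9.02, 9.32, 8.87, 9.57 and 8.94 in g KO. The highest knockout array, g318 KO, was below the lowest wild-type array, and the difference was -0.90 (SE 0.17, limma adjusted p = 0.00159). Itgb2, the beta chain CD18 that pairs with CD11b and CD11d, read 9.85, 9.75, 10.27, 9.47 and 9.98 against 9.09, 9.43, 7.95, 9.05 and 8.21. The margin between the groups was narrow and the difference was -1.12 (SE 0.23, limma adjusted p = 0.00301). Itgad, the alpha chain CD11d, read 7.25, 6.88, 6.98, 7.45 and 7.23 in g WT and 5.37, 5.22, 4.62, 5.93 and 4.60 in g KO. The lowest g WT array, 6.88, was above the highest g KO array, 5.93, a difference of -2.01 (SE 0.42, limma adjusted p = 0.00366), 4.04-fold lower and the largest of the 36 in g. In g KO the mean of Itgad stood above that of 32.5% of all genes, and in g WT above 65.1%.

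Itgad was also the 1 gene called in sc. It read 6.84, 7.65, 7.23, 7.73 and 8.21 in sc WT and 5.66, 6.37, 3.94, 6.77 and 4.36 in sc KO. All wild-type arrays lay above all knockout arrays, of which sc317KO and sc320KO were lowest, and sc318KO came closest to sc286WT. The difference was -2.11 (SE 0.42, limma adjusted p = 0.0194), 4.33-fold lower. Its sc KO mean stood above that of 36.3% of all genes. The values 3.94 and 4.36 were not far above the background probes, whose medians were 3.29 to 3.57, so dim signals limit this fold. The call held under 20 of 25 alternatives. It was lost without sc287WT (adjusted p = 0.0597), sc308WT (adjusted p = 0.0603), sc309WT (adjusted p = 0.0657) or sc320KO (adjusted p = 0.0654), and when only the sc arrays were fitted (adjusted p = 0.112). The difference between its knockout effects in g and sc was 0.10 (SE 0.60, limma adjusted p = 0.966). Its integrin relatives had values in sc of -0.47 for Itgam and -0.45 for Itgb2, neither called.

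**Figure D3:**
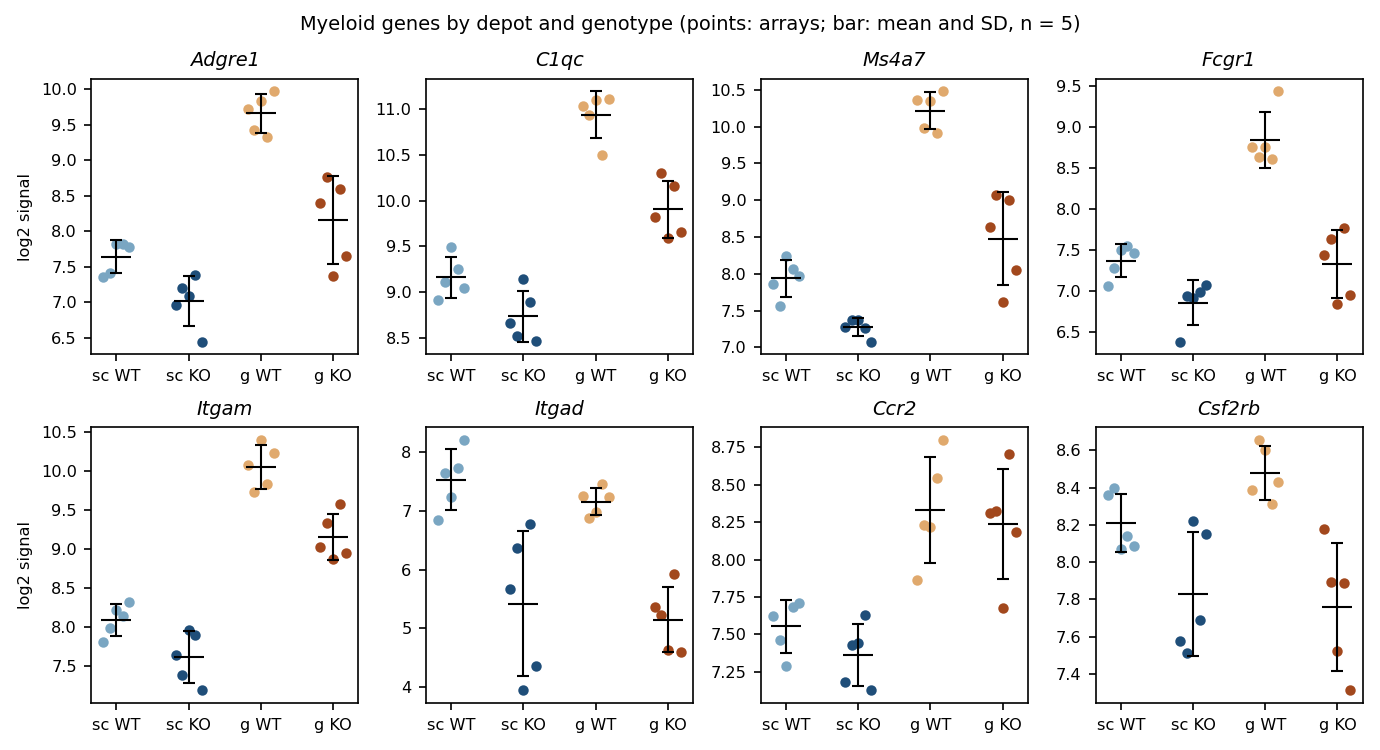
Log2 signal (y axis, own scale per gene) of 8 of the genes on the 5 arrays of each group (points), with mean and SD (bars). Adgre1, C1qc, Ms4a7, Fcgr1 and Itgam are highest in g WT, and Itgad is lower in KO than WT in both depots. Ccr2 follows the depot with overlapping genotypes. The Csf2rb mean in g KO, 7.76, is close to that in sc KO, 7.83, and the arrays of these groups overlap.

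The activating Fc receptors bind the tails of antibodies, and they and Tyrobp fell in g, 4 of 4. Fcgr1, the high-affinity IgG receptor CD64, read 8.75, 8.63, 8.76, 8.60 and 9.43 in g WT and 7.43, 7.63, 6.84, 7.77 and 6.95 in g KO. Array g309 WT was high among the wild-type arrays, no arrays overlapped, and the difference was -1.51 (SE 0.19, limma adjusted p = 7.37e-05), 2.85-fold lower. Fcgr3 read 10.97, 10.75, 11.16, 10.60 and 11.37 against 10.14, 10.32, 9.52, 10.52 and 9.81. Here the top knockout array, g318 KO, was just under g308 WT, and the difference was -0.91 (SE 0.17, limma adjusted p = 0.00167). Fcgr4 read 7.05, 6.83, 7.64, 6.74 and 8.32 against 5.98, 6.11, 4.50, 6.24 and 4.95. Its arrays spread widely in both genotypes and did not overlap, with a difference of -1.76 (SE 0.33, limma adjusted p = 0.00159). Tyrobp encodes DAP12, the adaptor through which TREM2 and other receptors signal. It read 9.80, 9.32, 9.90, 8.95 and 9.88 against 8.36, 8.58, 7.46, 9.05 and 7.94. Array g308 WT was below g318 KO, so the groups overlapped, and the difference was -1.29 (SE 0.23, limma adjusted p = 0.0012).

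In sc this role had the lowest median of the 8, -0.61, and Fcgr3, Fcgr4 and Tyrobp had all knockout arrays below all wild-type arrays. Tyrobp read 7.77, 7.70, 8.23, 8.03 and 8.21 in sc WT and 7.11, 7.19, 7.39, 7.50 and 7.21 in sc KO. The groups lay apart, but at -0.71 (SE 0.23, limma adjusted p = 0.206) it was not called in the fit over 4 groups. Fitted on the sc arrays alone, Tyrobp (limma adjusted p = 0.0414) and Ms4a7 (limma adjusted p = 0.0485) were called and Itgad was not. Fcgr4 was near the low end of the arrays in sc KO, where its mean stood above that of 19.7% of all genes.

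Of the recognition receptors 4 of 6 fell in g. Cd14, the co-receptor that hands bacterial lipopolysaccharide to TLR4, read 8.79, 8.42, 8.54, 8.16 and 8.99 in g WT and 7.60, 7.69, 7.21, 7.78 and 7.25 in g KO. The groups lay apart and the difference was -1.07 (SE 0.15, limma adjusted p = 0.000166). In sc the same gene read 6.61, 6.74, 7.08, 7.07 and 6.97 in WT and 6.87, 6.88, 6.89, 7.07 and 6.63 in KO. Those arrays were interleaved, at -0.03 (SE 0.15, limma adjusted p = 0.973). Msr1, the class A scavenger receptor for modified lipoproteins, read 8.94, 8.55, 9.03, 8.45 and 9.28 against 7.28, 7.64, 6.35, 8.04 and 6.66 in g. There was no overlap and the difference was -1.66 (SE 0.26, limma adjusted p = 0.000381), 3.15-fold lower. Siglec1, the sialic acid receptor CD169, read 7.81, 7.63, 7.87, 7.39 and 7.95 against 6.77, 6.79, 6.81, 6.67 and 6.37. Its knockout arrays lay between 6.37 and 6.81, all below the wild-type arrays, g317 KO being the highest, and the difference was -1.05 (SE 0.18, limma adjusted p = 0.000911).

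The lectin receptor Clec4d, which binds mycobacterial glycolipid, read 7.16, 6.99, 8.81, 6.89 and 8.47 in g WT and 5.55, 6.97, 5.04, 7.03 and 5.40 in g KO. Arrays g306 KO and g318 KO reached into the wild-type range, and the difference was -1.67 (SE 0.40, limma adjusted p = 0.00927). Its neighbour Clec4e, or Mincle, read 6.02, 6.48, 6.52, 6.32 and 7.56 against 5.68, 6.54, 6.36, 6.37 and 6.16. The genotypes overlapped and the difference was -0.36 (SE 0.21, limma adjusted p = 0.325). Marco, a scavenger receptor of alveolar and marginal zone macrophages, was not called in g, at -0.01 (SE 0.47, limma adjusted p = 0.996). Its g arrays all lay between 5.32 and 6.32. On sc arrays it read 7.65, 6.10, 5.95, 6.20 and 5.93 in WT and 5.43, 5.58, 8.35, 5.73 and 8.04 in KO. The 3 high values were those of sc286WT, sc317KO and sc320KO, which were also the arrays high in lymphocyte markers.

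Neither chemokine receptor was called in g or sc between genotypes. Ccr2, which draws monocytes to tissue along CCL2, read 7.87, 8.23, 8.22, 8.54 and 8.80 in g WT and 8.31, 8.32, 7.68, 8.70 and 8.18 in g KO. The groups overlapped almost wholly, at -0.09 (SE 0.17, limma adjusted p = 0.809). Cx3cr1, the fractalkine receptor, differed by -0.17 (SE 0.15, limma adjusted p = 0.55) in g and by 0.02 in sc. On all 20 arrays it lay between 4.69 and 5.72, and its sc WT mean stood above that of 31.8% of all genes.

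The effector genes fell in g, 5 of 5. Lyz2 encodes lysozyme M. It read 12.19, 12.10, 12.52, 11.90 and 12.56 in g WT and 11.50, 11.94, 11.13, 11.77 and 11.30 in g KO. Array g306 KO was above g308 WT, and the difference was -0.73 (SE 0.17, limma adjusted p = 0.00916). Cybb, the catalytic gp91phox chain of the phagocyte NADPH oxidase, read 10.68, 10.52, 11.06, 10.46 and 10.96 against 9.67, 10.23, 8.92, 10.22 and 9.31. It did not overlap and fell by 1.06 (SE 0.20, limma adjusted p = 0.00172). Ncf1, the p47phox subunit that activates the same enzyme, read 9.41, 9.33, 9.99, 9.22 and 9.71 against 8.50, 9.004, 8.16, 8.97 and 8.18. It fell by 0.97 (SE 0.27, limma adjusted p = 0.0228). Mpeg1, a pore-forming protein of the phagosome, read 10.57, 10.21, 10.93, 10.09 and 10.80 against 9.41, 9.73, 7.64, 9.73 and 8.12. The knockout arrays spanned 7.64 to 9.73, under every wild-type array, and the difference was -1.59 (SE 0.34, limma adjusted p = 0.00428). Ctss, the protease cathepsin S of antigen processing, read 10.57, 10.42, 11.14, 10.32 and 11.06 against 9.91, 10.29, 8.86, 10.55 and 9.28. Array g318 KO lay among the wild-type arrays, and the difference was -0.92 (SE 0.27, limma adjusted p = 0.0333). The calls on Ctss and Ncf1 were lost without g307 WT (adjusted p of 0.0995 and 0.0737), g309 WT (0.0923 and 0.058), g317 KO (0.107 and 0.0697) or g320 KO (0.0953 and 0.0652), and that on Ctss also without g286 WT (0.0525).

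In sc some genes of the set were highest on the lymphocyte-marker-high arrays. For 8 of the 36 genes (Irf8, Ptprc, Cd53, Ms4a6c, Aif1, Laptm5, Marco and Ncf1) the 3 arrays sc286WT, sc317KO and sc320KO were above the other 7 sc arrays, and for 0 genes below them. The share of all 19505 genes with this pattern was not counted, so these counts cannot show if the set is unusual. Ptprc read 9.97, 7.80, 7.90, 7.82 and 7.95 in sc WT and 7.34, 7.81, 10.50, 7.62 and 10.17 in sc KO. The lowest of the 3 arrays, 9.97, was far above the highest of the other 7, 7.95, and the genotype difference was 0.40 (SE 0.54, limma adjusted p = 0.865). Cd53 read 9.08, 8.03, 8.07, 8.20 and 8.01 in sc WT and 7.30, 7.43, 9.36, 7.64 and 9.26 in sc KO. There the other 3 sc KO arrays were below the other 4 sc WT arrays, and the difference over all arrays was -0.08 (SE 0.38, limma adjusted p = 0.972). Spi1, by contrast, read 10.83, 10.56, 10.44, 10.46 and 10.59 in sc WT and 10.02, 10.04, 10.39, 10.18 and 10.08 in sc KO. Its groups did not overlap, and the 3 arrays were not all above the other 7. Hepatocyte markers were above 0 in sc KO against sc WT for 15 of 15 genes (median 1.46), with 0 called by limma. Of the 15 genes 1 had an unadjusted p under 0.05, as did 2017 of all 19505 genes. With the hepatocyte marker mean as a covariate the median of the 36 myeloid genes in sc was -0.23. Without the hepatocyte-high arrays this median was -0.26, against -0.41 over all arrays. Without the 3 lymphocyte-high arrays that median was -0.52 and 1 gene, Itgad, was called. Without sc317KO, sc320KO, g317 KO and g320 KO, an alternative chosen after seeing the data, the median was -0.50. Then 6 of the 36 genes were called lower: Cd84, Csf2rb, Itgad, Mpeg1, Msr1 and Spi1. Over the alternatives run, calls among all genes in sc ranged from 37 to 233.

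**Figure D4:**
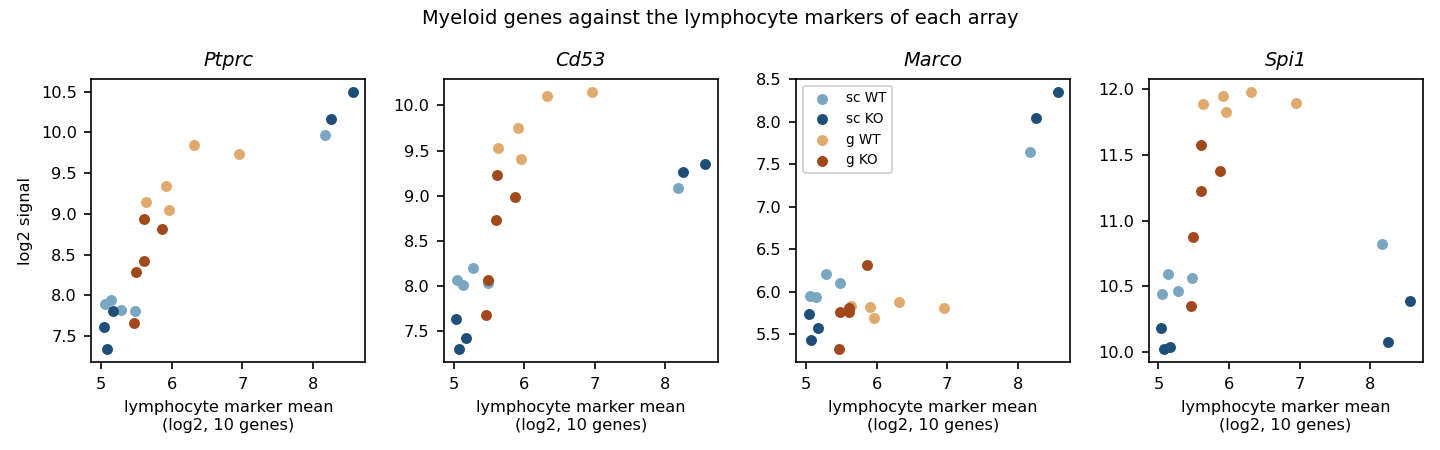
Log2 signal of Ptprc, Cd53, Marco and Spi1 (y axes, own scales) against the mean of 10 lymphocyte markers on the same array (x axis, log2), with 1 point an array coloured by group. The 3 sc arrays at 8.17 to 8.57 on the x axis are the highest for Ptprc and Marco, while for Spi1 the g WT arrays are highest.

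Whether the knockout effect differed between depots was tested by the interaction term of the same fit. Of the 36 genes 0 were called by limma, where 0.0769% of all genes were (0.041% higher and 0.0359% lower). Before adjustment 16 of the 36 had p under 0.05, as did 2537 of all 19505 genes. The median difference, g effect minus sc effect, was -0.67 and 34 of the 36 values were below 0. The smallest p was that of Cd14, at -1.04 (SE 0.21, limma adjusted p = 0.063). It was called under 6 alternatives, among them without g308 WT (adjusted p = 0.0251) and without g318 KO (adjusted p = 0.0483), and over its 34 alternatives the adjusted p ran from 0.0251 to 0.324. Next were Siglec1, at -1.11 (SE 0.26, limma adjusted p = 0.118), and Fcgr1, at -1.0004 (SE 0.27, limma adjusted p = 0.151). Siglec1 in sc read 6.68, 6.40, 6.55, 6.70 and 6.73 in WT and 6.17, 6.23, 7.33, 6.51 and 7.11 in KO, with the high knockout values on sc317KO and sc320KO. Aif1 had the lowest value, -1.64 (SE 0.51, limma adjusted p = 0.195). Without sc317KO, sc320KO, g317 KO and g320 KO, an alternative chosen after seeing the data, the median of the 36 differences was -0.20. Of the 36 genes 0 were then called.

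Between depots, the wild-type g samples held more of the myeloid RNAs than the wild-type sc samples. In g WT against sc WT 30 of the 36 genes were higher and 0 lower, where 17.8% of all genes were called, 9.3% higher and 8.48% lower, and the median was 1.52 (2.87-fold) against -0.04 for all genes. All 5 g arrays were above all 5 sc arrays for 30 genes, where 8.73% of all genes were, and all below for 1 gene, Marco, where 7.36% were. Clec4d was 2.35 (SE 0.40, limma adjusted p = 0.000309) higher. Its sc WT arrays read 5.18, 5.36, 5.75, 5.48 and 4.80, all below the g WT arrays given above, which began at 6.89. Ms4a7 was higher by 2.28 (SE 0.22, limma adjusted p = 1.09e-06), with sc WT arrays of 7.86, 7.56, 8.24, 8.06 and 7.96. Adgre1 was higher by 2.02 (SE 0.23, limma adjusted p = 6.12e-06), with sc WT arrays of 7.36, 7.42, 7.83, 7.82 and 7.78. Every sc WT array of both genes was under every g WT array, by a wide margin. The 2 depots also differed in Csf1r (1.31), C1qc (1.77), Itgam (1.96), Msr1 (2.18), Cd84 (2.19) and Ccr2 (0.78), each called. Not called were Cx3cr1, Ptprc, Irf8, Csf2rb, Marco and Itgad. Itgad read lower in g by a difference of -0.37 (SE 0.42, limma adjusted p = 0.611) and its arrays overlapped. Markers of other cell types also differed between the wild-type depots. Adipocyte markers were called lower in g WT for 14 of 16 genes and mast cell genes higher for 8 of 10 (median 1.66). The 11 skeletal muscle markers all had differences below 0 (median -1.98), with 0 called and 9 at an unadjusted p under 0.05. The 15 hepatocyte markers all had differences above 0 (median 1.16), with 0 called and 1 at such a p. Of all 19505 genes 5836 had such a p. Of the lymphocyte markers 0 were called, or 5 of 10 higher without the 3 lymphocyte-high sc arrays. With the hepatocyte marker mean as a covariate 30 of the 36 genes were called and the median was 1.73. With the hepatocyte, lymphocyte and muscle marker means as covariates 30 were called and the median was 1.52. That fit lost Clec4e and Ccr2 and added Ptprc, and Marco as lower in g. The part of the adipocyte and mast cell lists in the depot difference was not tested.

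Between the knockout depots the myeloid RNAs were again higher in g. In g KO against sc KO 20 of the 36 genes were higher and 0 lower, where 4.13% of all genes were called, 2.87% higher and 1.27% lower, and the median was 0.88 (1.84-fold). All 5 g KO arrays were above all 5 sc KO arrays for 10 genes, where 2.31% of all genes were, and all below for 0 genes, where 1.95% were. Itgam was higher by 1.53 (SE 0.17, limma adjusted p = 1.51e-05). Its sc KO arrays read 7.64, 7.38, 7.96, 7.90 and 7.18, under the g KO arrays, whose lowest was 8.87. Csf2ra was higher by 1.43 (SE 0.25, limma adjusted p = 0.00195), with sc KO arrays of 7.14, 7.55, 6.75, 7.44 and 6.36. C1qc was higher by 1.17 (SE 0.16, limma adjusted p = 0.000202), with sc KO arrays of 8.66, 8.52, 9.14, 8.89 and 8.47. All 3 complement genes were called here, 2 of 3 integrins, 3 of 5 lineage genes and 3 of 8 surface markers. Siglec1, by contrast, differed by 0.01 (SE 0.18) and Aif1 by 0.04 (SE 0.36), neither called. The difference between this depot comparison and that in wild type is the interaction term given above, for which 0 genes were called, and the comparisons share arrays. In all, 9 genes were called when only the knockout arrays were fitted and 6 without the hepatocyte-high arrays. Without sc317KO, sc320KO, g317 KO and g320 KO, an alternative chosen after seeing the data, 27 were called. The median difference was 0.88 with only the knockout arrays, 0.84 without the hepatocyte-high arrays and 1.33 without those 4 arrays.

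Other genes of the same pathways were set beside the 36 in g KO against g WT, where 11.3% of all 19505 genes were called. Of 12 genes of Toll-like receptors and their partners 10 fell and 0 rose (median -1.13), among them Tlr13 at -1.89 (adjusted p = 0.00129) and Tlr7, a sensor of single-stranded RNA, at -1.25 (adjusted p = 0.000584). Of 13 genes that signal from activating and inhibitory receptors 7 fell (median -0.86), including Fcer1g, the gamma chain that Fcgr1, Fcgr3 and Fcgr4 need, at -1.09 (adjusted p = 0.000586), and Sirpa, the receptor of CD47, at -1.02 (adjusted p = 5.21e-05). Of 3 partners of Cybb and Ncf1 in the NADPH oxidase 2 fell, Cyba at -0.74 (adjusted p = 0.00451) and Ncf4 at -1.06 (adjusted p = 0.0452). Of 8 myeloid transcription factors 3 fell, led by Runx1 at -1.25 (adjusted p = 0.000503), and of 5 genes of other leukocyte integrins and their partners 3 fell, with Itgax at -1.60 (adjusted p = 0.0135). Of 10 lysosomal genes 8 fell, with a median of -0.53 over the 10, and Lgmn at -1.06 (adjusted p = 0.000761) led them. Of 7 CSF ligands and receptors 1 fell, Il3ra at -0.40 (adjusted p = 0.0285). In sc limma called 0 of the 58 genes of these lists, of which 13 had an unadjusted p under 0.05. Of all 19505 genes 2017 had such a p in sc.

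Lists of particular myeloid cells did not all go the same way. Of 8 genes of lipid-associated macrophages 5 fell in g KO and 0 rose (median -1.08), with Trem2, the lipid-sensing receptor that signals through Tyrobp, at -1.78 (adjusted p = 0.0037). Of 12 genes of resident or alternatively activated macrophages 5 rose and 2 fell (median 0.53): Retnla rose by 1.56 (adjusted p = 6.38e-05), Cd163, the haemoglobin scavenger receptor, by 1.04 (adjusted p = 0.0035) and Mgl2 by 0.79 (adjusted p = 0.000128), while Folr2 fell by 1.08 (adjusted p = 0.00139). Mast cell genes fell in 9 of 10 cases (median -1.62), with the protease Cpa3 at -2.63 (adjusted p = 4.62e-05). Of all 19505 genes 11.3% were called in g. Neutrophil genes were near that share, with 1 of 11 called, S100a8 at -1.84 (adjusted p = 0.0043). Dendritic cell genes were called in 2 of 9 cases, Itgax, counted above as an integrin, lower and Cd209a higher at 0.60 (adjusted p = 0.0257). These adjusted p-values are limma's over all genes. In sc 1 gene of these lists was called, Mrc1 at -0.55 (adjusted p = 0.0371). The 8 genes of lipid-associated macrophages all had sc differences below 0, with a median of -1.13 close to that in g. In sc 8 of 8 had an unadjusted p under 0.05, as did 2017 of all 19505 genes, though 0 of the 8 were called after adjustment. Without the lymphocyte-high arrays sc286WT, sc317KO and sc320KO the sc median was -0.86 and 5 of 8 had such a p. Their list mean was 9.38 ± 0.21 (SD, n = 5) in sc WT and 8.06 ± 0.79 (SD, n = 5) in sc KO, and every sc KO array lay below every sc WT array. Within sc KO this mean was 7.17 on sc317KO and 7.28 on sc320KO, against 8.27 to 8.86 on the other arrays.

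**Figure D5:**
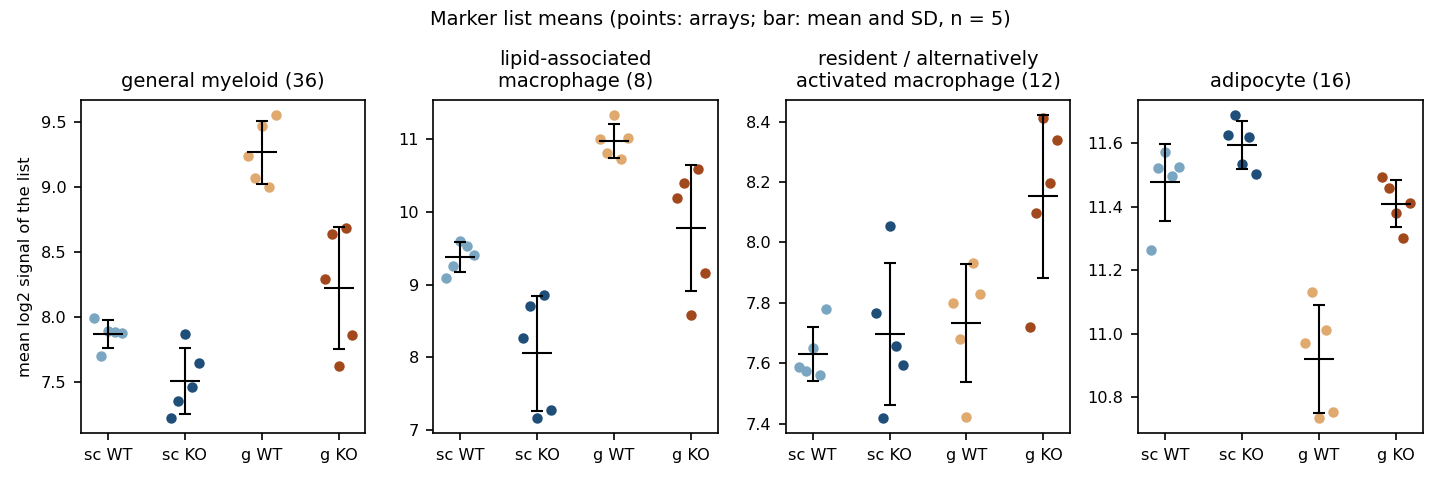
Mean log2 signal (y axis, own scale per list) of the 36 general myeloid genes and of 3 marker lists on the 5 arrays of each group (points), with mean and SD (bars). The general myeloid mean is 9.27 in g WT and 8.22 in g KO, that of the resident list is 7.73 and 8.15, and that of the adipocyte list is 10.9 and 11.4.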

How the data were processed

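Total RNA of 20 samples, 100 ng each, was labelled with biotin and hybridised to 20 arrays. The authors normalised by RMA and used limma, per the submitters' processing notes, so each deposited value is the log2 signal of a probe. Versions: not given in the sources used here. The series' design text names another gene, PKP2, for the sc arrays, while every label gives Olfm2; the labels were followed.

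Control probes (6640 of 28846) and the 2634 other probes that did not carry exactly 1 symbol were left out. For the 55 genes with more than 1 probe the brightest on average was used, leaving 19505 genes. Median signals of the 23 background probes were 3.29 to 3.57. A fit in R 4.3.3 with limma 3.58.1 gave each of the 4 groups a mean (16 residual degrees of freedom), with two-sided moderated p-values and Benjamini-Hochberg adjustment over all genes in each of 5 comparisons; SE is that of the fit. The number of arrays limits the precision. The code was tested on simulated data.

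The members and lists were chosen with earlier results of these data known. All members are named; called members and those with an outlying array have values by array, and up to 4 called genes with the smallest p may be named from any other list. Alternatives covered the genes tested, the probe kept, normalization, variance model, groups fitted, covariates for other-tissue markers, arrays left out and the title number as a block. All 36 members matched RefSeq symbols. No protein sequences were used here.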

Additional observations from a re-analysis of the deposited data

Results flagged for a closer look

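In 12 of 144 sets of 5 arrays (36 genes in 4 groups) 1 array lay far from the other 4, by Dixon's test at a critical value of 0.71, where chance gives about 1 in 20 sets. Of the 12, 5 were high values of sc286WT, an array high in lymphocyte and muscle markers: Ptprc at 9.97, Cd53 at 9.08, Laptm5 at 10.8, Itgb2 at 8.46 and Marco at 7.65. Array sc317KO, also high in lymphocyte markers, stood above its group for Csf1r at 9.44 and C1qa at 8.74. Array g309 WT stood above its group for Aif1 at 8.73 and Fcgr1 at 9.43. Low values were Ms4a6c at 5.87 on sc287WT, Fcgr1 at 6.38 on sc300KO and C1qc at 10.5 on g308 WT.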

How the results depend on the processing

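The cause of a change with a setting was not tested. None of the called genes among the 36 changed direction under the alternatives run. Of the 36 genes, 1 was called in sc, and 2 when only the sc arrays were fitted and 6 without sc317KO, sc320KO, g317 KO and g320 KO; leaving out 1 array gave 0 to 1. In g 30 were called, 25 to 31 with 1 array left out, and 1 without the hepatocyte-high arrays, where 1 g KO array is left. For the difference between depots 0 were called, and 1 (Cd14) with genes above the median level, with a variance trend, with array weights and with the title number as a replicate block; leaving out 1 array gave 0 to 1. For g against sc leaving out 1 array gave 30 to 32 genes in wild type (30 called) and 16 to 22 in knockout (20 called), where fitting only the knockout arrays gave 9 and leaving out the hepatocyte-high arrays 6. With the replicate block, which does not rest on a stated pairing, the counts were 1 in sc, 31 in g, 1 for the difference, 30 in wild type and 21 in knockout; same-numbered sc and g arrays had residual correlations of -0.46 to 0.14 (median 0.011), and 3 of 10 numbers had their own partner as best match. Over all genes, calls ran from 37 to 233 in sc (132 in the fit reported), 43 to 2948 in g (2200), 1 to 41 for the difference (15), 1656 to 5130 between wild-type depots (3468) and 118 to 969 between knockout depots (806). Medians of the 36 genes with 1 array left out ran from -0.48 to -0.34 in sc and -1.11 to -0.87 in g. Dim signals limit Fcgr4, Clec4d and Cx3cr1 in sc, whose means stood above 19.7% to 36.2% of all genes. They also limit Itgad in knockout, whose mean stood above 36.3% in sc KO and 32.5% in g KO.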
